A study of Mus musculus with 12 samples.

Results

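The 39 protein-coding genes of the mouse Hox clusters were followed through 12 whole lungs from the count table. Members were taken by name and biotype, as every protein-coding gene called Hoxa, Hoxb, Hoxc or Hoxd followed by a number, which gave 39 of the 55487 genes of the table. There were 11 in the Hoxa cluster on chromosome 6, 10 in the Hoxb cluster on chromosome 11, 9 in the Hoxc cluster on chromosome 15 and 9 in the Hoxd cluster on chromosome 2. All 12 lungs came from miR-30a-/- mice on the C57BL/6J background, in which CRISPR editing had removed the whole miR-30a gene, so that the room-air controls carried the deletion too. Pups breathed either hyperoxia (95% FiO2) from postnatal day 1 to 5 or room air, and lungs were harvested on postnatal day 21. Each combination of sex and exposure held 3 lungs, and animals are named below by the number in their labels. Pups of several litters were pooled and shared out between the exposures, so equal numbers do not mark litter mates. Wild-type lungs were not analysed here.

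Hox genes encode homeodomain transcription factors that give cells their position along the head-to-tail axis. They lie in clusters in which a gene's place, its paralogue number, follows the order of its expression along the body, from the 3' end (paralogue 1, anterior) to the 5' end (paralogue 13, posterior). They bind DNA together with TALE cofactors (the Pbx, Meis and Pknox families), are switched on early by retinoic acid and Cdx factors, and are held silent or active by Polycomb and trithorax complexes. In the lung they are known mainly from the mesenchyme, where Hoxa5 is required for normal development of the organ. In whole lung RNA, fewer expressing cells and less RNA per cell cannot be told apart.

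The sequences below show what lies upstream of genes on either side of the step in level found along the clusters, with every CG pair, the site of DNA methylation, in capitals. Each is the 250 bases before a transcript start in RefSeq (build GRCm38.p6), printed 5' to 3' on the gene's own strand. None overlapped an annotated exon.
Hoxa5 (chr6:52204588-52204837, minus strand, 28 CG): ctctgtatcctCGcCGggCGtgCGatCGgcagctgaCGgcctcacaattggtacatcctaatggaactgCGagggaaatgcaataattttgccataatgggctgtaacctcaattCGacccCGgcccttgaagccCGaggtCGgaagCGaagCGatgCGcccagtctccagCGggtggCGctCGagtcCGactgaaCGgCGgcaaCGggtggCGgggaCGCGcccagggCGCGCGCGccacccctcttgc
Hoxa7 (chr6:52218574-52218823, minus strand, 7 CG): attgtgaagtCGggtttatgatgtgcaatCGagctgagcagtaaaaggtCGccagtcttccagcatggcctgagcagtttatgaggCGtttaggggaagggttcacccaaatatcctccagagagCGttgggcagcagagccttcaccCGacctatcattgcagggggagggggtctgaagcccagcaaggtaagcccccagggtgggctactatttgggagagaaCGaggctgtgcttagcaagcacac
Hoxa9 (chr6:52227371-52227620, minus strand, 3 CG): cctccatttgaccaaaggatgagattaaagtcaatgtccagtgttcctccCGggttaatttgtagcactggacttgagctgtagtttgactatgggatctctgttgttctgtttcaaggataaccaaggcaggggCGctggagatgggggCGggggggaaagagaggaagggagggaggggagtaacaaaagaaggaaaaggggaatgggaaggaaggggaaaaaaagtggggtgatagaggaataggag
Hoxa13 (chr6:52260881-52261130, minus strand, 35 CG): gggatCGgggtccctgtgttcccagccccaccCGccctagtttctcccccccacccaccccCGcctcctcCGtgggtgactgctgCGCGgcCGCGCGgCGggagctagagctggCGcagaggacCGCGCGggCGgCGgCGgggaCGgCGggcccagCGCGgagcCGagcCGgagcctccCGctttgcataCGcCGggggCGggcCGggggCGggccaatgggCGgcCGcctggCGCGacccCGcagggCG
Upstream sequence was found for 22 of the 39 members, as 24 windows because Hoxa10 and Hoxd11 have more than one start. The median number of CG pairs was 12.5 in these windows and 6 over the 32851 windows of all genes. Of the 4 shown, Hoxa13, one of the lowest genes, had the most CG pairs and Hoxa5, the highest gene, the next most. Over all 24 windows, the 4 of genes that lay above both background references defined below had a median of 21 CG pairs, and the other 3 classes of genes had medians of 10, 12.5 and 13. The ranges overlapped, from 7 to 28 in the former and from 2 to 35 in the latter. Of short motifs searched on both strands, AGGTCA (an element of retinoic acid receptor sites) was in 6 of the 24 windows against 14.02% of all windows, TGATNNAT (a Pbx and Hox composite site) in 4 against 7.68%, TGACAG (a Meis site) in 2 against 15.9% and TTTATG (a posterior Hox site) in 5 against 10.8%. TATAAA was in 4 against 12.4%. TATAAA and TTTATG can each share up to 5 bases with TGATNNAT, and the other pairs of motifs at most 2.

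The clusters also hold microRNA genes, and these mature forms are shown beside the deleted one with the seed (bases 2 to 8) in capitals.
miR-30a-5p: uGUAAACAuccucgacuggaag
miR-10a-5p: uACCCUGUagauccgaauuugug
miR-10b-5p: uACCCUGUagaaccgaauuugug
miR-196a-5p: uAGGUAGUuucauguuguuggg
miR-196b-5p: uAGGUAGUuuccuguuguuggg
miR-10a and miR-10b share one seed and lie in the Hoxb and Hoxd clusters, and the miR-196 forms share another. The gene of miR-30a had 0 counts in all 12 lungs. This is a weak check of the deletion, because precursors of cluster microRNAs were also barely counted: Mir10a had 142 counts over the 12 lungs, Mir196a-2 172, Mir196a-1 55, Mir10b 17 and Mir196b 0.

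Lungs held between 8763033 and 16741694 counts (median 11942546), and a floor of 3 counts equalled 0.179 to 0.342 CPM (counts scaled to a library of 1000000) across them. Hox genes together took 0.0308% to 0.0387% of each library. Markers of alveolar type 1 and type 2 cells, fibroblasts, endothelium and airway epithelium were counted in every lung, with none of the listed genes at 0. One library stood apart: room-air male 1 had 2432 CPM of summed skeletal muscle markers against 146 to 265 CPM in the other 11 lungs. Red cell markers summed to 5149 to 7824 CPM in the room-air lungs and 1254 to 4636 CPM in the hyperoxia lungs, and cardiac muscle markers to 202 to 362 CPM and 196 to 239 CPM. Counts of genes above background in every lung, their relation to background and the calls for exposure are therefore also given without room-air male 1.

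A first question was which Hox genes were transcribed at all, because every library also carried reads over genes that lung cells do not use. Levels are given as RPKM, the CPM divided by the kilobases of own exon, where own exon means positions shared with no other gene. As background, 1485 olfactory and vomeronasal receptor genes had a median of 0.687 to 1.63 RPKM per lung and a 95th percentile of 1.54 to 3.12 RPKM. Against that percentile, 17 of the 39 Hox genes were above background in all 12 lungs, 19 in some lungs and 3 (Hoxd8, Hoxd11 and Hoxd13) in none. Without room-air male 1 the first count was 21, with Hoxb1, Hoxb7, Hoxd4 and Hoxd9 added. Of the receptor genes themselves, 17 of 1485 (1.14%) were above their own 95th percentile in every lung.

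Receptor genes are poorer in G and C (median 39.7%) than Hox genes (54.1%), and reference genes richer in them had more background: 57 keratin-associated protein genes (51.6%) had a median of 1.91 RPKM against 1.22 RPKM for receptors. A stricter reference was therefore added after the data were seen, made of 93 transcription factor genes of other developing organs (median GC 56.5%). Their median was 2.23 to 3.18 RPKM per lung and their 95th percentile 3.78 to 4.93 RPKM, and 0 of the 93 were above it in all lungs. Against this reference 6 Hox genes remained in all 12 lungs, namely Hoxa3, Hoxa5, Hoxa6, Hoxa7, Hoxb3 and Hoxb5, also without room-air male 1. A further 3, Hoxa2, Hoxa4 and Hoxb4, were above it in 11 of the 12 lungs. The count became 8 without hyperoxia female 4 (Hoxa2 and Hoxa4 were added) and 7 without hyperoxia male 2 (Hoxb4 was added). These 9 genes had means of 5.27 to 15.1 RPKM. The other 30 lay between 1.60 and 4.68 RPKM. Next to the limit were Hoxa2 (5.27 RPKM, 11 lungs) on the inside and Hoxc12 (4.68 RPKM, 8 lungs), Hoxb6 (4.25 RPKM, 7 lungs), Hoxc4 (4.18 RPKM, 5 lungs) and Hoxb2 (4.05 RPKM, 5 lungs) on the outside.

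**Figure D1:**
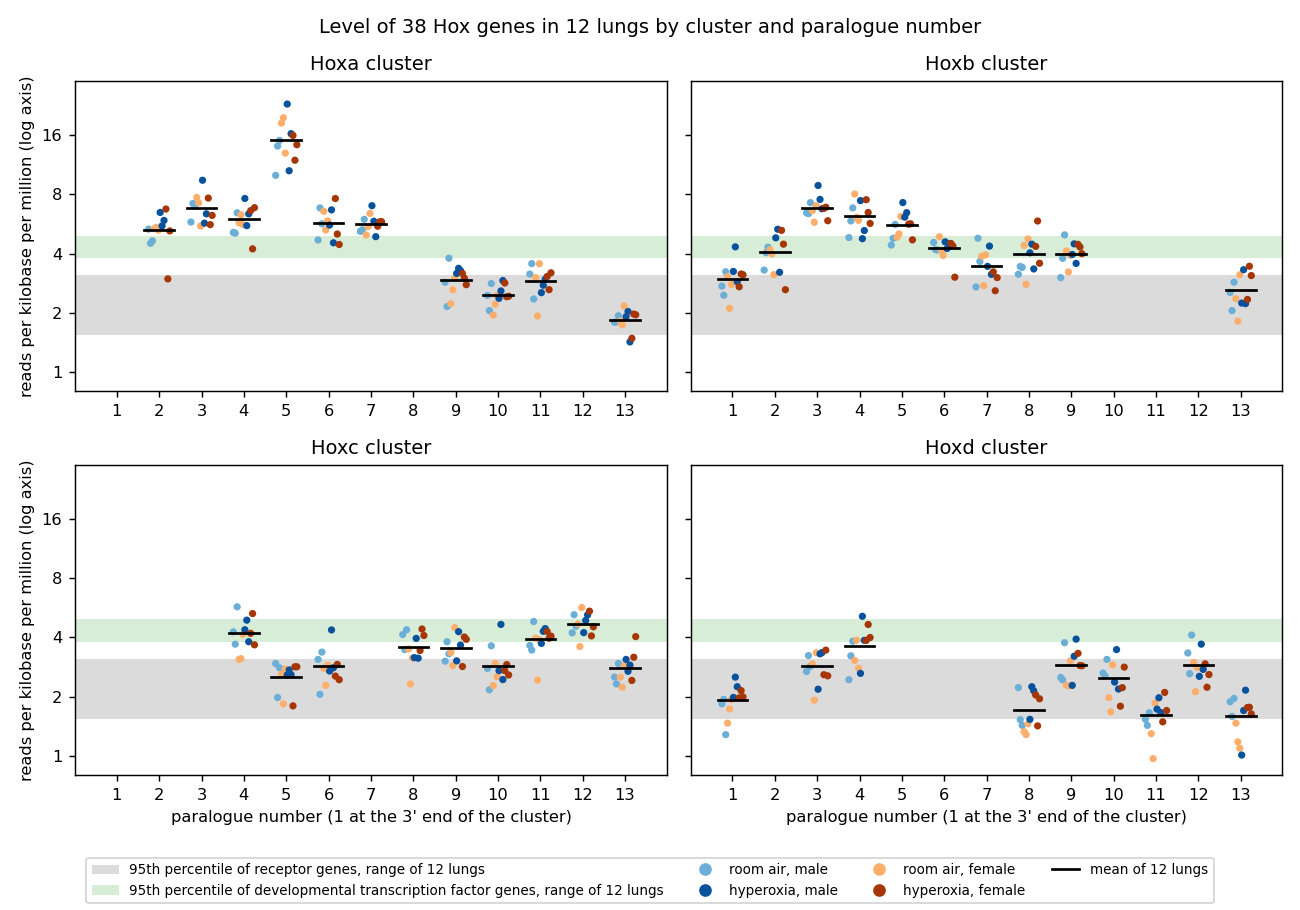
Level of 38 of the 39 Hox genes (vertical log axis, RPKM of own exon) against paralogue number in the 4 clusters. Points are the 12 lungs, black lines their mean, and the bands span the per-lung 95th percentiles of receptor genes (grey) and of developmental transcription factor genes (green). Hoxa2 to Hoxa7 and Hoxb3 to Hoxb5 have their means above both bands, and no gene of paralogue 9 or higher has its mean above the green band.

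The classes lay at different positions in the clusters. Among paralogues 1 to 8, 13 of 23 genes were above the receptor reference in all lungs and 6 above both references. Among paralogues 9 to 13 these numbers were 4 of 16 and 0. Without room-air male 1 they were 16 of 23 and 6, and 5 of 16 and 0. By cluster, 6 of 11 Hoxa genes, 6 of 10 Hoxb, 5 of 9 Hoxc and 0 of 9 Hoxd were above receptors in all lungs, and 4 Hoxa and 2 Hoxb genes above both references. Without room-air male 1 Hoxb had 8 of 10 and Hoxd 2 of 9, so the 0 of Hoxd rested on that lung, while Hoxa and Hoxc and the numbers above both references stayed as they were. Spearman's rho between paralogue number and mean level was -0.45 over the 39 genes, -0.49 in Hoxa, -0.39 in Hoxb, 0.10 in Hoxc and -0.35 in Hoxd. These are descriptions, since the genes share libraries and differ in base composition. Within paralogues 1 to 8 taken alone rho was -0.0040, and within paralogues 9 to 13 -0.47.

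In the Hoxa cluster the step fell between Hoxa7 and Hoxa9. Hoxa5 (chr6:52201754-52204587) was the highest Hox gene, with 9.97, 14.04 and 14.998 in room-air males, 22.9, 10.5 and 16.2 in hyperoxia males, 18.4, 19.5 and 12.9 in room-air females and 15.9, 11.9 and 14.3 in hyperoxia females RPKM. All 12 lungs lay above every other Hox gene of the same lung. Its mean was 15.1 ± 3.79 RPKM (SD, n = 12), 2.21 times that of the next member, and 5.66 times the developmental gene median of the same lungs. Hoxa3 (chr6:52169062-52213336), a gene of head and neck mesenchyme, had 5.78, 7.18 and 7.01 in room-air males, 9.42, 5.702 and 6.36 in hyperoxia males, 7.704, 7.24 and 5.51 in room-air females and 7.64, 5.61 and 6.24 in hyperoxia females RPKM. Its span encloses Hoxa4, Hoxa5 and Hoxa6, and 72.9% of its exon was its own. Hoxa4 (chr6:52189671-52191753), a paralogue with roles in the trunk skeleton, had 5.12, 5.08 and 6.43 in room-air males, 7.61, 5.54 and 6.36 in hyperoxia males, 5.73, 6.29 and 5.62 in room-air females and 6.597, 4.22 and 6.83 in hyperoxia females RPKM. Both genes were highest in hyperoxia male 1, as was Hoxa5, and the groups overlapped.

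Hoxa2, which patterns the branchial arches, averaged 5.27 ± 0.967 RPKM (SD, n = 12) and ranged from 2.97 RPKM in hyperoxia female 4 to 6.73 RPKM in hyperoxia female 2. Hoxa6 averaged 5.72 ± 1.01 RPKM and Hoxa7 5.67 ± 0.604 RPKM, the latter with the smallest relative spread of the 39 genes (10.6% of the mean). Outside this run, Hoxa9 (chr6:52223100-52231089), best known from blood progenitors, had 2.86, 2.15 and 3.79 in room-air males, 3.17, 3.36 and 3.27 in hyperoxia males, 2.23, 2.62 and 2.9997 in room-air females and 3.17, 2.999 and 2.78 in hyperoxia females RPKM. It was above the developmental reference in 0 lungs, although above receptors in 11. Hoxa10, Hoxa11 and Hoxa13, genes of the reproductive tract, limb and hindgut, averaged 2.46, 2.89 and 1.84 RPKM.

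In the Hoxb cluster the highest genes were Hoxb3, Hoxb4 and Hoxb5, with means of 6.84, 6.21 and 5.56 RPKM, and the next gene, Hoxb6, averaged 4.25 RPKM. Hoxb3 (chr11:96323326-96347930) had 6.43, 6.37 and 7.25 in room-air males, 8.85, 7.53 and 6.75 in hyperoxia males, 6.6001, 5.76 and 6.998 in room-air females and 6.78, 6.87 and 5.87 in hyperoxia females RPKM, all above the developmental reference, though only 47.1% of its exon was its own. Hoxb4 (chr11:96318267-96321638), known from blood progenitors, had 4.82, 5.85 and 6.82 in room-air males, 7.42, 4.76 and 5.23 in hyperoxia males, 8.01, 6.099 and 5.89 in room-air females and 7.499, 6.46 and 5.69 in hyperoxia females RPKM. Hoxb5 (chr11:96303336-96306121), known from lung and gut mesenchyme, had 4.42, 4.78 and 5.62 in room-air males, 7.26, 6.12 and 6.45 in hyperoxia males, 4.84, 5.03 and 6.17 in room-air females and 5.63, 5.66 and 4.69 in hyperoxia females RPKM. Hoxb4 was highest in room-air female 2 and Hoxb3 and Hoxb5 in hyperoxia male 1, and only Hoxb5 had groups that did not overlap, in males. Hoxb6, Hoxb8 and Hoxb9 were above receptors but not the developmental reference in all lungs, and Hoxb8 and Hoxb9 averaged 3.96 and 3.98 RPKM.

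The other Hoxb genes failed the receptor reference in some lungs. Hoxb2, a hindbrain gene, had 3.296, 4.04 and 4.31 in room-air males, 4.81, 5.31 and 3.21 in hyperoxia males, 4.18, 3.98 and 3.12 in room-air females and 5.24, 4.46 and 2.62 in hyperoxia females RPKM. Hoxb7 had 2.71, 4.78 and 3.65 in room-air males, 3.44, 4.36 and 3.14 in hyperoxia males, 3.88, 2.75 and 3.94 in room-air females and 3.23, 2.59 and 3.02 in hyperoxia females RPKM. Hoxb13, a gene of prostate and tail bud, had 2.54, 2.05 and 2.86 in room-air males, 2.24, 3.31 and 2.23 in hyperoxia males, 2.36, 1.81 and 3.12 in room-air females and 2.34, 3.45 and 3.09 in hyperoxia females RPKM. Hoxb2 and Hoxb7 passed the receptor reference in 11 lungs each and Hoxb13 in 9. Hoxb1, the remaining member, averaged 2.98 RPKM and also passed in 11.

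No Hoxc gene rose above the developmental reference in all lungs, and no run of neighbours stood out. Hoxc12 (chr15:102936757-102938609), a posterior gene of hair and limb, had 4.21, 5.21 and 4.55 in room-air males, 4.22, 4.87 and 5.19 in hyperoxia males, 4.67, 3.59 and 5.67 in room-air females and 5.43, 4.07 and 4.52 in hyperoxia females RPKM. It was above the developmental reference in 8 lungs and had the highest GC content of the 39 genes (62.3%). Hoxc4 (chr15:103018934-103036852) had 4.26, 3.69 and 5.71 in room-air males, 4.37, 4.89 and 3.7998 in hyperoxia males, 3.09, 3.12 and 4.14 in room-air females and 4.19, 5.28 and 3.66 in hyperoxia females RPKM. Hoxc11 (chr15:102954427-102957708) had 3.64, 3.45 and 4.81 in room-air males, 3.73, 4.29 and 4.43 in hyperoxia males, 3.96, 2.42 and 3.88 in room-air females and 4.28, 3.96 and 4.06 in hyperoxia females RPKM. Levels of the 3 genes overlapped in every group. Hoxc8 and Hoxc9, genes of the thoracic skeleton, averaged 3.59 and 3.55 RPKM and were above receptors in all lungs, above the developmental reference in 1 each.

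The other 4 Hoxc genes failed the receptor reference in some lungs. Hoxc5 had 2.94, 1.98 and 2.802 in room-air males, 2.58, 2.73 and 2.59 in hyperoxia males, 2.604, 1.84 and 2.76 in room-air females and 1.795, 2.84 and 2.84 in hyperoxia females RPKM. Hoxc6 had 3.09, 2.06 and 3.37 in room-air males, 2.698, 4.36 and 2.803 in hyperoxia males, 2.78, 2.28 and 2.89 in room-air females and 2.54, 2.92 and 2.44 in hyperoxia females RPKM. Hoxc10, a lumbar gene, had 2.78, 2.17 and 3.62 in room-air males, 2.71, 4.65 and 2.44 in hyperoxia males, 2.28, 2.95 and 2.52 in room-air females and 2.71, 2.91 and 2.58 in hyperoxia females RPKM. Hoxc6 and Hoxc10 were both highest in hyperoxia male 2, the shallowest library. Hoxc13, required for hair, had 2.51, 2.32 and 2.95 in room-air males, 3.09, 2.69 and 2.89 in hyperoxia males, 2.51, 2.23 and 2.86 in room-air females and 2.42, 3.17 and 4.03 in hyperoxia females RPKM. None of these 4 passed the developmental reference in any lung.

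In the Hoxd cluster 0 of 9 genes was above receptors in all 12 lungs, and 2, Hoxd4 and Hoxd9, in the 11 lungs other than room-air male 1. Hoxd4 had the highest mean (3.61 ± 0.809 RPKM, SD, n = 12), with 47.7% of its exon its own, and passed the receptor reference in 11 lungs and the developmental reference in 3. Hoxd3, Hoxd9, Hoxd10 and Hoxd12 averaged 2.86, 2.90, 2.47 and 2.89 RPKM and Hoxd1 1.92 RPKM. Hoxd13, the most posterior gene of digits and hindgut, averaged 1.60 ± 0.354 RPKM and ranged from 1.01 to 2.16 RPKM. Hoxd11 (1.62 RPKM) and Hoxd8 (1.72 RPKM) were close to it. No Hox gene had fewer than 28 counts in any lung. Each was above the floor of 3, so that 39 of 39 genes counted as detected.

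**Figure D2:**
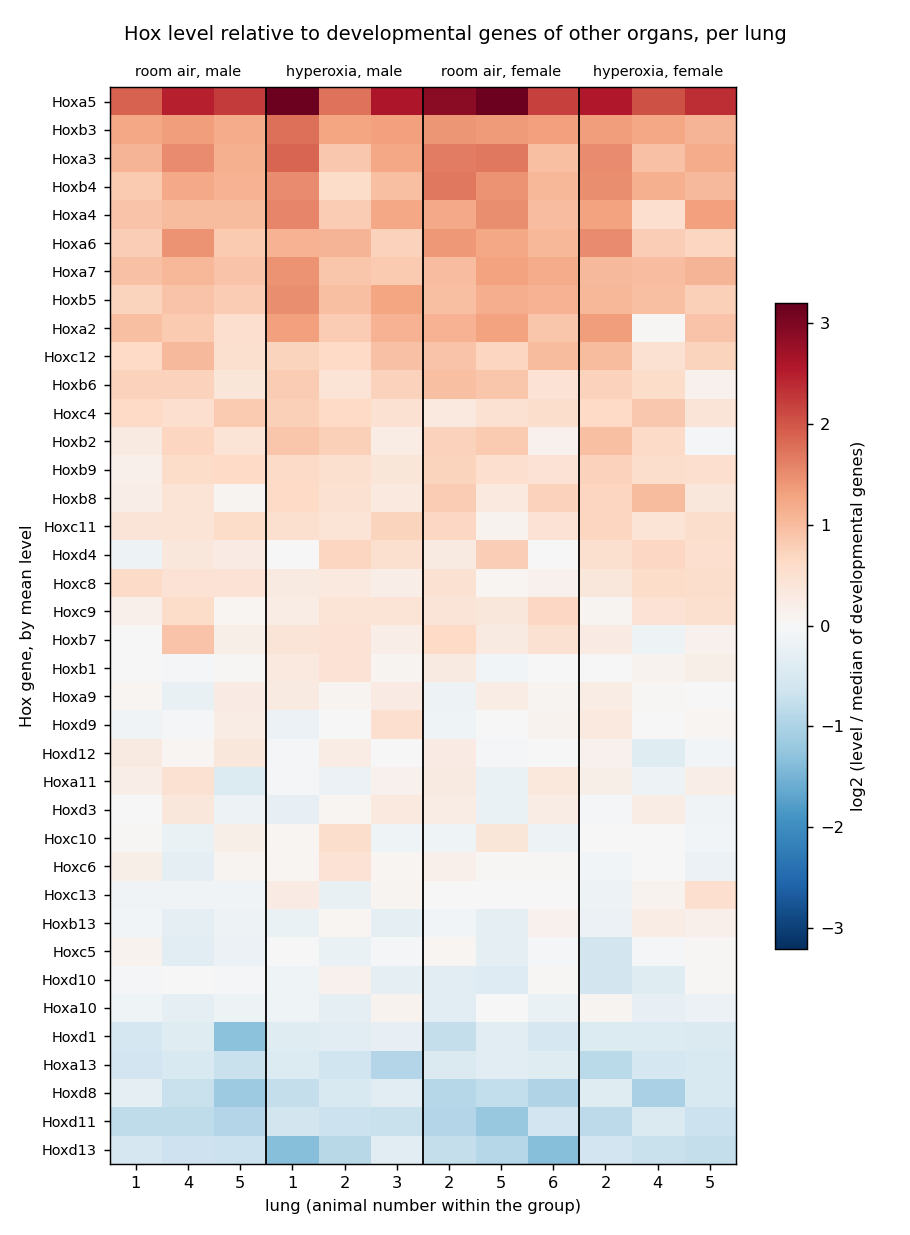
Level of 38 of the 39 Hox genes divided by the median of the 93 developmental genes in the same lung, as log2 (colour), with genes ordered by mean level and lungs by group. Hoxa5 is darkest in every lung, and the next 8 genes are at least as high as that median in every lung. Hoxd13, Hoxd11, Hoxd8, Hoxa13 and Hoxd1 are below that median throughout.

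Levels also varied with the background of the lung. Over the 12 lungs Pearson's r with the lung's receptor median was below 0 for all 9 upper genes (-0.87 to -0.040) and above 0 for 27 of the other 30 (median 0.49, highest 0.76 for Hoxc8). The sign was not uniform by other measures: Spearman's rho was above 0 for Hoxa7 and Hoxb3 (0.17 and 0.20), and r was above 0 for Hoxa7, Hoxb3 and Hoxb5 both without the 2 lungs farthest from the median receptor level and without room-air male 1. Of the other 30 genes, r was above 0 for 22 and 28 in these settings. For Hoxa5 r was -0.87 (adjusted permutation p = 0.0070 over 39 genes) and Spearman's rho -0.83 (adjusted permutation p = 0.054). Without those 2 lungs r was -0.83, and without room-air male 1 it was -0.85. Hoxa5 was the only gene that passed the adjustment for r, and 0 passed for rho. The permutations shuffled all 12 lungs without regard to sex or exposure, so differences between groups enter these p-values. Of the 9 upper genes, 7 were highest in one of the 3 lungs with the least receptor signal (room-air females 2 and 5 and hyperoxia male 1), against 1 of the other 30. This was not particular to Hox genes. The same 3 lungs were highest in summed fibroblast, alveolar type 1 and type 2, endothelial and blood progenitor markers. Endothelial markers, for example, summed to 2305 to 2362 CPM in them and at most 2074 CPM elsewhere. Airway epithelial, muscle, red cell, fat, T cell, and kidney, gut and liver markers did not rank these 3 lungs highest. Both axes share the library total, and receptor medians were 0.687 to 1.29 RPKM in room-air females, 1.16 to 1.51 in hyperoxia females, 1.11 to 1.61 in room-air males and 0.852 to 1.63 in hyperoxia males. The part of receptor signal in the comparisons of exposure that follow was examined only by adding it as a covariate and by subtracting it.

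**Figure D3:**
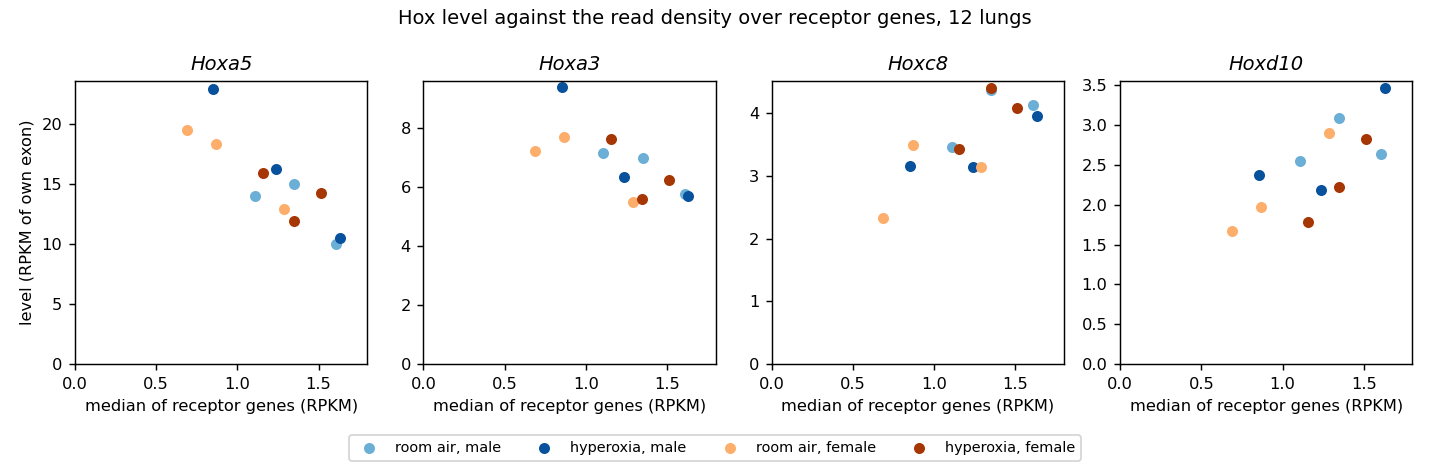
Level of 4 Hox genes (vertical axis, RPKM of own exon) against the median of the receptor genes in the same lung (horizontal axis, RPKM), with 1 point per lung and colours for the groups. Hoxa5 and Hoxa3 fall from left to right and Hoxc8 and Hoxd10 rise, with r of -0.87, -0.74, 0.76 and 0.73.

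Whether hyperoxia in the first days of life changed Hox levels on day 21 was tested across all genes, and no Hox gene passed with upper-quartile scaling alone. With both sexes averaged, 0 of 39 members were called (edgeR's quasi-likelihood test, with p adjusted by Benjamini-Hochberg under 0.05 together with more than 1.5-fold change), against 19 of 45828 genes (0.0415%), of which 1 was higher and 18 lower. DESeq2 also called 0 members, against 40 of all genes (0.0873%). At an unadjusted p under 0.05 there was 1 member, against 5.2% of all genes. The smallest adjusted p of any member was 0.93 by edgeR. The lowest log2 fold change was that of Hoxb7 (-0.17). Values were above 0 in 30 of 39 members, with a median of 0.090 where the median of all genes was 0.031. No member had 6 lungs of one exposure all above or below the 6 of the other, as 0.216% of all genes did. For 34 of the 39 genes the 95% interval of the fold change stayed within 1.5-fold in either direction, and for all 39 within 2-fold. The other comparisons were bounded less tightly: 23 genes stayed within 1.5-fold in females, 20 in males and 2 for the interaction. Within 2-fold these numbers were 38, 39 and 34. Without room-air male 1, 0 members were called with both sexes averaged, in females, in males, for the interaction or for sex, where 26, 8, 0, 0 and 554 of all genes were.

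Hoxa5 had a log2 fold change of 0.02 (95% interval -0.30 to 0.34). Hoxa3 had -0.0036 (-0.27 to 0.27), Hoxb3 0.09 (-0.13 to 0.31) and Hoxb4 -0.03 (-0.29 to 0.23). The 9 upper genes together had a median of 0.047 and the other 30 a median of 0.12.

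**Figure D4:**
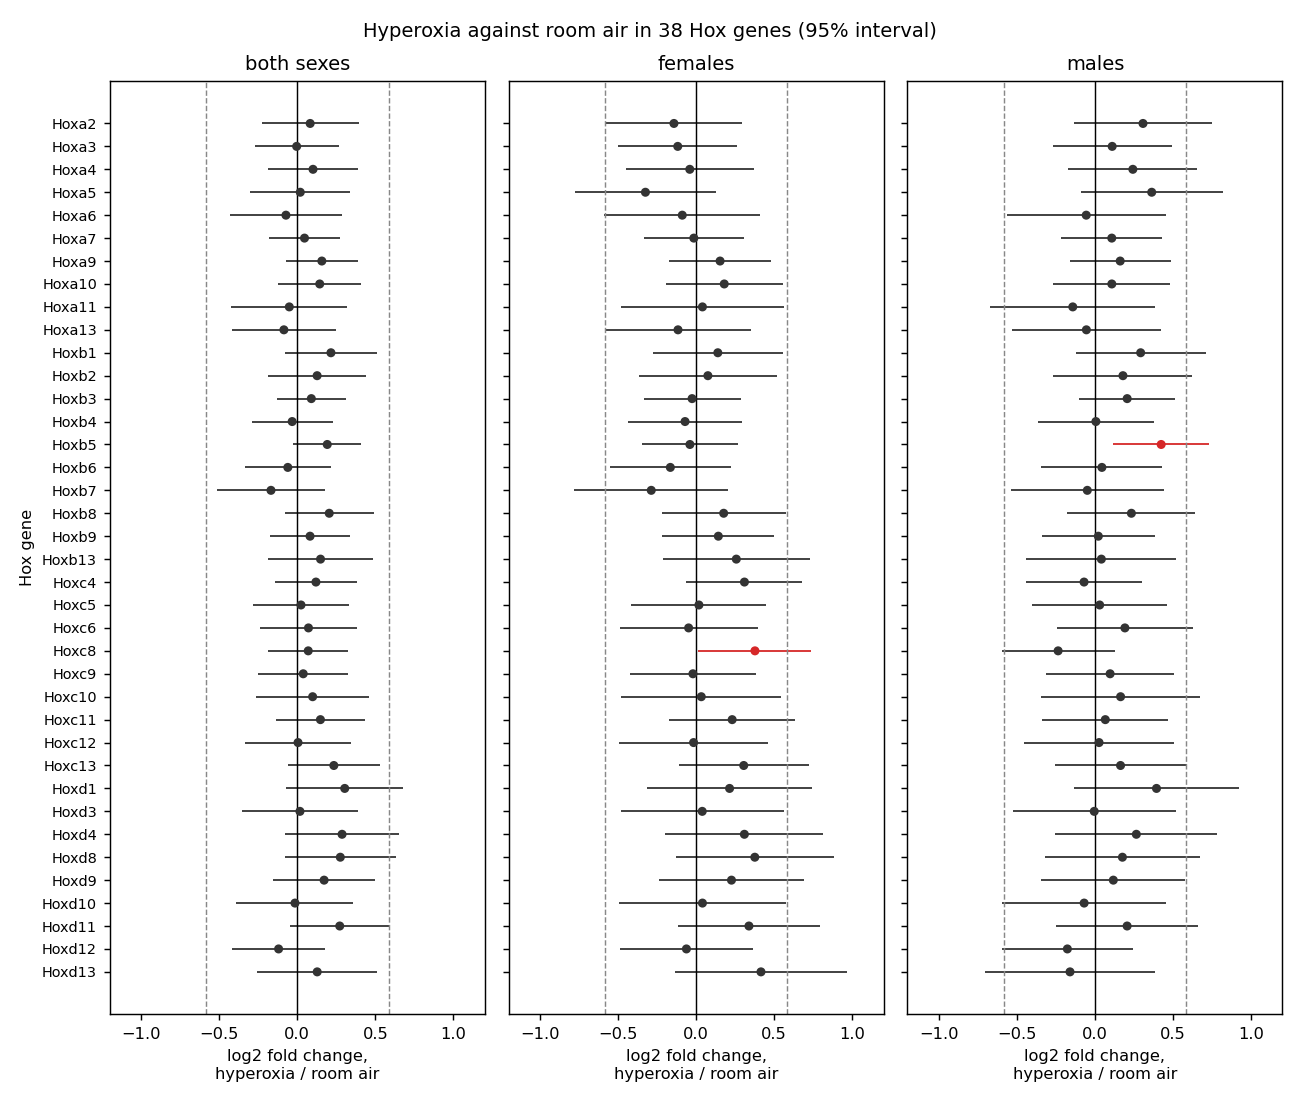
Log2 fold change of 38 of the 39 Hox genes in hyperoxia against room air (horizontal axis) in both sexes, females and males, with 95% intervals as lines. Dashed lines mark 1.5-fold, and red marks an unadjusted p under 0.05. Hoxc8 in females and Hoxb5 in males are red, and neither passed adjustment.

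In females 0 members were called, against 1 gene of all (0.00218%), and DESeq2 called 0 members, against 89 of all genes (0.194%). After removal of 1 or 2 factors of unwanted variation estimated from the residuals (RUVr), 1 member was called in females, beside 1902 and 1925 of all genes. RUVr is part of the normalization described in the study's methods. There were 2 members at an unadjusted p under 0.05, against 12.6% of all genes. One of them, Hoxc8, had 11.6, 10.2 and 11.6 in room-air males, 8.93, 10.7 and 8.93 in hyperoxia males, 10.3, 6.997 and 8.77 in room-air females and 9.71, 12.6 and 11.5 in hyperoxia females normalized CPM, with overlapping groups in both sexes. Its log2 fold change in females was 0.38 ± 0.18 (SE), with an edgeR adjusted p of 0.39. This became 0.21 with the receptor share of each lung as a covariate, 0.57 after background subtraction and 0.24 without room-air female 5. The 39 members had a median of 0.041 in females (-0.049 with DESeq2), where the median of all genes was 0.11 (0.020 with DESeq2). Groups of females did not overlap for 4 members, among them Hoxa10, Hoxd1 and Hoxd13, all higher in hyperoxia, against 10.8% of all genes higher and 6.42% lower, where 0 members were. The gap in Hoxa10 was small (7.90 in the highest room-air and 7.91 in the lowest hyperoxia female, normalized CPM), and in RPKM its groups overlapped, which left 3 members, against 11.3% of all genes higher in RPKM. The 3 named genes were below the developmental reference in every lung.

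In males 0 members were called, against 0 genes of all (0.0%), and DESeq2 likewise called 0 members and 0 genes. Only Hoxb5 had an unadjusted p under 0.05, against 2.7% of all genes. Hoxb5 had 11.8, 13.3 and 14.2 in room-air males, 19.5, 15.7 and 17.4 in hyperoxia males, 13.5, 14.4 and 16.4 in room-air females and 15.1, 15.4 and 12.5 in hyperoxia females normalized CPM. The 3 hyperoxia males lay above the 3 room-air males, and the female groups overlapped. Its log2 fold change in males was 0.42 ± 0.15 (SE, n = 3 and 3), with an edgeR adjusted p of 1.00. Non-overlapping male groups were found for Hoxb5 and Hoxd11, both higher in hyperoxia, against 2.73% of all genes higher and 3.89% lower, where 0 members were. In RPKM Hoxa2 and Hoxd1 were added, which made 4 members, against 2.73% of all genes higher in RPKM as well.

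The sexes were compared directly by the interaction of sex and exposure (change in females minus change in males), for which 0 members and 0 of all genes (0.0%) were called, also by DESeq2. At an unadjusted p under 0.05 there were 3 members, against 8.46% of all genes. Hoxa5 had 18.6, 27.3 and 26.5 in room-air males, 43.05, 18.8 and 30.6 in hyperoxia males, 35.9, 39.1 and 23.9 in room-air females and 29.8, 22.6 and 26.6 in hyperoxia females normalized CPM. Its log2 fold change was -0.32 ± 0.22 (SE) in females and 0.36 ± 0.22 (SE) in males, and the difference -0.69 ± 0.31 (SE) had an edgeR adjusted p of 0.58. With the receptor share as covariate the difference was 0.04, after background subtraction -0.46, and without hyperoxia male 1 -0.38. Hoxb5 differed by -0.46 ± 0.21 (SE) and Hoxc8 by 0.61 ± 0.25 (SE), each with an edgeR adjusted p of 0.58. With the covariate these became -0.39 and 0.40, and that of Hoxc8 0.91 after background subtraction. All 9 upper genes had a log2 fold change below 0 in females and 8 of them above 0 in males. With the covariate, however, 1 was below 0 in females and 6 were above 0 in males, and after background subtraction 3 and 7. These signs were not particular to Hox genes. Median log2 fold changes of alveolar type 2 markers were -0.54 in females and 0.22 in males, and of endothelial markers -0.41 and 0.056. Those of Polycomb and trithorax genes were -0.24 and 0.10. Alveolar type 1, airway epithelial, cardiac and red cell markers had medians below 0 in both sexes. Skeletal muscle, fat and T cell markers had the reverse signs. The median of all genes was 0.12 for the interaction, and 0.012 with the size factors of DESeq2. RUVr with 1 or 2 factors called Hoxa5 and Hoxc8 for the interaction, beside 2101 and 2184 of all genes.

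**Figure D5:**
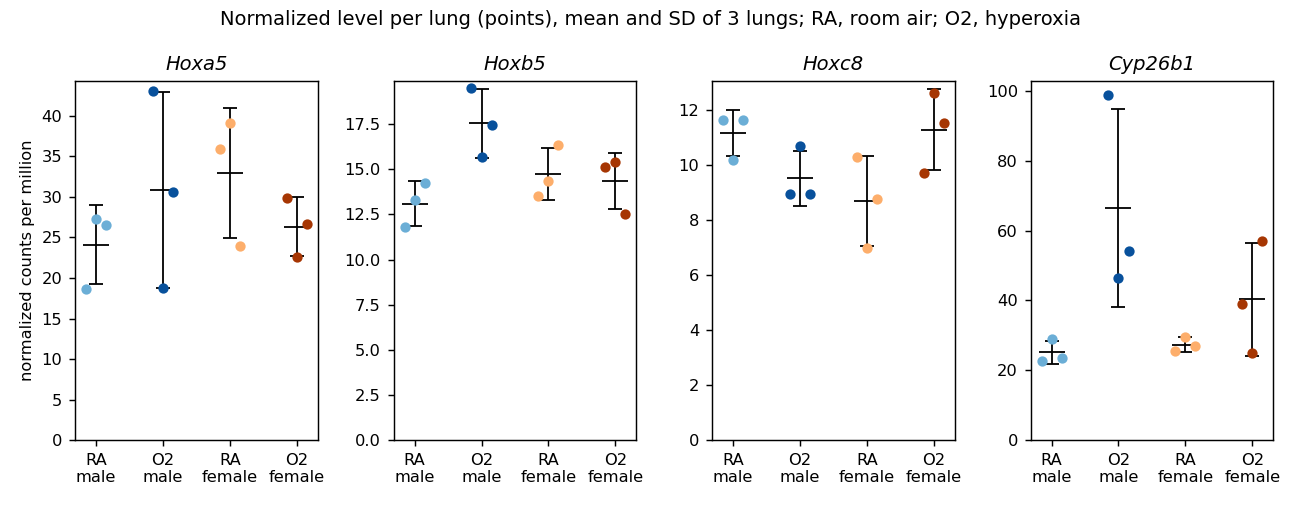
Normalized CPM per lung (points, linear axis from 0) in the 4 groups for 3 Hox genes and Cyp26b1, with the mean and SD of 3 lungs. Hoxb5 is separated by exposure in males, and Hoxa5 overlaps in both sexes.

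Females and males, averaged over exposures, did not differ in a called Hox gene (0 of 39 by edgeR and by DESeq2), where 559 of all genes (1.22%) did by edgeR and 791 (1.73%) by DESeq2. At an unadjusted p under 0.05 there was 1 member, against 6.88% of all genes.

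The partners and regulators of Hox proteins were examined from lists. All 9 TALE cofactors were tested and 0 were called for exposure, for the interaction or for sex. Pbx2 averaged 11.8 ± 1.77 RPKM (SD, n = 12) and Meis1 9.79 ± 1.65 RPKM, and Pbx4 was lowest at 3.47 RPKM. Of 25 Polycomb and trithorax genes 0 were called for exposure. Kdm6a, an X-linked demethylase of the Polycomb mark, was higher in females (log2 fold change 0.75 ± 0.15, SE, edgeR adjusted p = 0.0052). Of the 12 tested genes next to the clusters 0 were called, and Evx1 and Evx2, homeobox genes at the 5' ends of Hoxa and Hoxd, averaged 2.56 and 2.05 RPKM.

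Of 18 genes of the upstream signals 1 was called for exposure with both sexes averaged. Cyp26b1, an enzyme that breaks down retinoic acid, had 22.8, 29.04 and 23.7 in room-air males, 98.9, 46.4 and 54.3 in hyperoxia males, 25.5, 29.6 and 26.9 in room-air females and 39.1, 24.9 and 57.1 in hyperoxia females normalized CPM. Male groups did not overlap, and in females hyperoxia female 4 lay below all 3 room-air females and the other two above them. The log2 fold change was 0.98 ± 0.18 (SE, n = 6 and 6) with an edgeR adjusted p of 0.026, and 0.0075 by DESeq2. It ran from 0.78 to 1.24 over 22 alternatives and was called in 10 of them. The call was lost without room-air male 5, room-air females 2, 5 or 6, hyperoxia male 2 or hyperoxia females 2 or 5, taken one at a time (edgeR adjusted p 0.091 to 0.19). It was also lost with the receptor share as covariate (edgeR adjusted p = 0.24), with background subtracted (0.13), with RUVr of 1 and 2 factors (0.068 and 0.098) and with the replicate block over 6 lungs (1.00). Its interaction with sex was not called (edgeR adjusted p = 0.58). Rara and Rarg, retinoic acid receptors, averaged 16.5 and 16.05 RPKM and Rarb 3.50 RPKM. Aldh1a2, an enzyme that makes retinoic acid, averaged 6.03 RPKM with a log2 fold change of -0.18 ± 0.12 (SE). Cdx1 and Cdx2 averaged 3.27 and 3.03 RPKM and Cdx4 1.47 RPKM.

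Non-coding genes of the clusters were counted as well. Of 19 listed, 16 were found and 13 tested, and 0 were called for exposure. Hotairm1, an antisense RNA at the 3' end of the Hoxa cluster, averaged 8.60 ± 1.60 RPKM (SD, n = 12), above Hoxa2. Hoxb3os and Hoxb5os averaged 6.37 and 4.41 RPKM. Hottip beyond Hoxa13, Hotair in the posterior Hoxc cluster and Haglr in Hoxd averaged 2.52, 1.72 and 2.21 RPKM. Reads over opposite-strand genes were discarded by the counting, so these levels rest on own exon only.

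Other cell types entered as whole marker lists. With both sexes averaged, 4 of 6 red cell markers fell in hyperoxia (for example Alas2, which makes heme, log2 fold change -1.11 ± 0.19, SE, edgeR adjusted p = 0.013). Of 8 cardiac muscle markers 0 were called (smallest edgeR adjusted p = 0.056, Myh6). For fibroblast (14 genes), alveolar type 2 (8), alveolar type 1 (6), endothelial (8), airway epithelial (6), skeletal muscle (12), fat (6), thymus and T cell (8), blood progenitor (6), and kidney, gut and liver markers (8), 0 were called. Gata1, an X-linked blood progenitor gene, was higher in females (log2 fold change 0.71 ± 0.13, SE, edgeR adjusted p = 0.0017). The part of these cells in the Hox levels was not tested.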

How the data were processed

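Whole lungs were flash frozen and total RNA was sequenced after removal of ribosomal RNA; the labels and the study's methods name different stranded library kits. Per the labels, the authors used Trim Galore, STAR with build mm10, and featureCounts, and the deposited values are raw counts per gene with no normalization. The strand setting was read from the table: of 252 genes lying wholly under exons of the opposite strand 248 had 0 counts, against 1019 of 37657 genes sharing no exon, so counting ignored strand and dropped overlapping reads. Antisense reads over own exon can therefore add to a Hox level.

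Exon lengths came from GENCODE release M21, matched for 55141 of 55487 genes, and RPKM used the raw total of each lung. Reference genes had at least 300 bases of own exon. Counts were tested in edgeR 4.0.16 (R 4.3.3) with upper-quartile scaling, filterByExpr, a robust quasi-likelihood fit of the 4 groups together and Benjamini-Hochberg adjustment over 45828 genes. A gene was called when its adjusted p was below 0.05 and it changed more than 1.5-fold. DESeq2 1.42.0 was an alternative. So was RUVr, which the study's methods apply before testing, since the number of factors is not given in the sources used here. On simulated counts for hyperoxia against room air in both sexes (44818 genes, 200 changed 3-fold), all 200 were recovered with 11 false calls. Every simulated gene had the same dispersion, and only genes above a minimum mean CPM were changed. The simulation therefore does not measure power near 1.5-fold or within a sex. Correlation p-values used 100000 permutations. Intervals use the fit's total degrees of freedom, which include those borrowed across genes (25.8 for Hoxa5 and 27.8 for Hoxb5). The residual degrees of freedom of the lungs alone are fewer and would give wider intervals.

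Genes given lung by lung were the 3 highest members above receptors in all lungs of each cluster, members with an unadjusted p under 0.05 for exposure in both sexes or the interaction, and members that missed the receptor reference next to one that passed it. Members and gene lists were chosen with earlier results of these data known. Labels give 1 animal per lung, so p-values measure the spread between animals. Animal numbers shared between groups did not pair the lungs. No lung was left out, and protein sequences were not used here. Values of some genes that these rules select are not reported here, and counts over members include them.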

Additional observations from a re-analysis of the deposited data

Results flagged for a closer look

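Within the 6 lungs of one exposure, 6 of the 39 genes had a lung far from the other 5, by the gap to its nearest neighbour as a share of the whole range and Dixon's critical value for 6 samples. Chance passes this value in about 1 of 20 groups, and 86 groups were looked at. In the hyperoxia lungs, male 2 was high for Hoxb1 (4.32 RPKM, gap 0.671 of the range), Hoxc6 (4.36 RPKM, gap 0.751) and Hoxc10 (4.65 RPKM, gap 0.788). Hyperoxia male 2 was the shallowest library (8763033 counts) and had the highest receptor median (1.63 RPKM). Hyperoxia female 5 was low for Hoxb6 (3.03 RPKM, gap 0.778) and hyperoxia female 2 for Hoxc5 (1.795 RPKM, gap 0.751). In room air, male 1 was high for Hoxd8 (2.22 RPKM, gap 0.740). The same lung was far above the others in summed skeletal muscle markers (2432 CPM, gap 0.959), and its receptor median was 1.61 RPKM. The part of muscle or background RNA in the Hoxd8 value was not tested.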

How the results depend on the processing

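The count of 17 Hox genes above background in all 12 lungs depended on the reference: it was 11 with the 99th percentile of receptor genes, 5 with 3 times their median, 6 with keratin-associated protein genes and 34 where 6 of the 12 lungs sufficed. Leaving out 1 lung at a time gave 17 to 21. Of references added after seeing the data, developmental transcription factor genes gave 6 and their 99th percentile 2 (Hoxa5 and Hoxb3). The number of Hox genes called for exposure or sex was 0 under every alternative run (TMM, DESeq2, filters, receptor share, background subtraction, the adjusted p alone, each lung left out), except that RUVr with 1 factor and with 2 factors called 1 in females and 2 for the interaction. Called genes of all kinds moved more: with both sexes averaged from 3 to 37 without single lungs, and in females 0 to 206, the highest without room-air female 6, against 19 and 1 in the full fit. Over the other alternatives they ran from 3 to 110 with both sexes averaged, 0 to 1925 in females, 0 to 63 in males, 0 to 2184 for the interaction and 266 to 1037 for sex, the highest each time with RUVr. The log2 fold change of Hoxa5 with both sexes averaged changed sign with DESeq2 (-0.021), was 0.21 with the receptor share as covariate and ran from -0.14 to 0.15 without single lungs, against 0.02 in the full fit. Its interaction with sex turned from -0.69 to 0.040 with the receptor share as covariate and ran from -0.95 to -0.38 without single lungs. The cause was not tested. Lungs of equal sex and number did not deviate together (correlations 0.060, -0.17 and -0.30). A replicate block over the 6 lungs of shared numbers called 0 Hox genes and 3 of all genes, and one over 4 female lungs 0 and 476. Every Hox gene had at least 28 counts in each lung.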
